A study of Homo sapiens with 4 samples.

Results

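The genes described here are long noncoding RNAs and microRNA host transcripts of BLaER1, a human B cell leukaemia line, before and after its conversion into macrophage-like cells. They are the rows of the deposited expression table whose symbol begins with LINC and a digit, begins with MIR and ends with HG, or is MALAT1 or NEAT1, and which reached 0.5 TPM (a level corrected for gene length and scaled to the same sum in every library) in at least 2 of the 4 libraries. This floor was met by 83 of 1945 rows with such a name, in a table of 58302 rows. Of the 83 genes, 71 are LINC genes, 10 are microRNA hosts and the others are MALAT1 and NEAT1. The table holds 3 rows named MALAT1 or NEAT1, of which 2 met the floor and are described below. Among the rows with such a name outside the 83, 1140 were listed at 0 in all 4 libraries and 722 lay above 0 but below the floor. The genes were thus chosen by their name and by their measured TPM in these same libraries. The 3 genes just inside it were LINC00115 (0.72 and 0.51 TPM differentiated, 0.51 and 0.31 undifferentiated), LINC01238 (0 and 0.43 against 0.87 and 0.50) and LINC00921 (0.53 and 0.82 against 0.10 and 0.06). The 3 just outside were LINC00528 (0.25 and 0.40 against 0.83 and 0.49), LINC01163 (0.02 and 0.02 against 1.95 and 0.48) and LINC01003 (0.47 and 0.57 against 0.20 and 0.08).

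The study compared 2 libraries of differentiated with 2 of undifferentiated cells, and asked how expression differs between the stages. Cells of both stages carry the transcription factor C/EBPα fused to the part of the oestrogen receptor that binds hormone, and both were grown in RPMI medium with foetal calf serum. Differentiated cells had received 100 nM oestradiol together with M-CSF and IL-3 for 5 to 6 days, while no treatment is stated for undifferentiated cells. Total RNA was turned into strand-specific libraries (NuGEN Encore Complete kit). BLaER1 is a single leukaemia line driven by a fusion protein, which limits it as a model of B cells and macrophages. Whether libraries of 1 stage stem from separate cultures is not said in the labels, so every p-value reflects the spread of these 4 libraries alone, which may be technical. In such bulk libraries, fewer cells of a type and less RNA per cell cannot be told apart.

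Long noncoding RNAs are transcripts, mostly spliced and capped like messenger RNA, that are not known to be translated, and many act in the nucleus. MALAT1 lies in nuclear speckles, the stores of splicing factors, and NEAT1 is the RNA scaffold of paraspeckles, nuclear bodies that hold RNA-binding proteins such as NONO and SFPQ. A microRNA host gene makes a long transcript from which Drosha and DGCR8 cut a hairpin. Dicer then trims the hairpin to a mature microRNA, which guides Argonaute proteins to messenger RNAs through its seed. The level of a host transcript is therefore not the level of its microRNA.

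By GENCODE 29 position 21 microRNA genes lie wholly within the 10 expressed host genes on the same strand (MIR424, which overlaps MIR503HG only in part, is not counted), and RefSeq gave 39 mature sequences for them, at least 1 for each host. Those below are shown because they tell the hosts apart and because several hosts share seeds. They are written 5′ to 3′ with the seed, bases 2 to 8, in capitals. MIR17HG carries the miR-17-92 cluster, from miR-17-5p to miR-92a-3p at chr13:91350618-91351382 on the plus strand of GRCh38.p14.
miR-17-5p: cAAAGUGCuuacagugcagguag
miR-20a-5p: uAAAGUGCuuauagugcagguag
miR-18a-5p: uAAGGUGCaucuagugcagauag
miR-19a-3p: uGUGCAAAucuaugcaaaacuga
miR-19b-3p: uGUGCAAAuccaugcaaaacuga
miR-92a-3p: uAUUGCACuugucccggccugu
The pair from MIR222HG, the host of miR-221 and miR-222 on the X chromosome, has 1 common seed.
miR-221-3p: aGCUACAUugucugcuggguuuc
miR-222-3p: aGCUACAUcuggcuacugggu
MIR181A1HG on chromosome 1 and MIR181A2HG on chromosome 9 hold genes for the same 2 mature sequences, which also share a seed.
miR-181a-5p: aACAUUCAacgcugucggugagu
miR-181b-5p: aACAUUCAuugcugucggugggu
MIR99AHG on chromosome 21 and MIR4458HG on chromosome 5 share the let-7 seed, and MIR99AHG also holds miR-99a and miR-125b.
let-7c-5p: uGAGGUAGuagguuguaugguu
miR-4458: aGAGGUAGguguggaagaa
miR-99a-5p: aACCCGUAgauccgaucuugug
miR-125b-5p: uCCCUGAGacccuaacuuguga
Of the 5′ or 3′ arms shown for the last 4 hosts, none shares its seed with another mature sequence of this set.
miR-22-3p: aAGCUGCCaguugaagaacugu
miR-146a-5p: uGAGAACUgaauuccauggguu
miR-155-5p: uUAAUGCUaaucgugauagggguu
miR-503-5p: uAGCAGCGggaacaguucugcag
Across all 39 sequences there were 30 different seeds, and 7 of them belonged to more than 1 mature microRNA.

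Most of these genes were weakly expressed. The median of the mean TPM over the 4 libraries was 0.808, with 35 of 83 genes at a mean of 1 TPM or more, 20 at 2 or more and 4 at 5 or more. MALAT1 alone supplied 90.8% of the summed TPM of the 83 genes after differentiation in either library, against 96.3% and 95.9% before it. Without MALAT1 and NEAT1 the sums were 107 and 106 TPM in differentiated against 143 and 90.8 in undifferentiated libraries, so the stages overlapped. The highest mean of any other gene was 8.24 TPM (LINC00969).

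**Figure D1:**
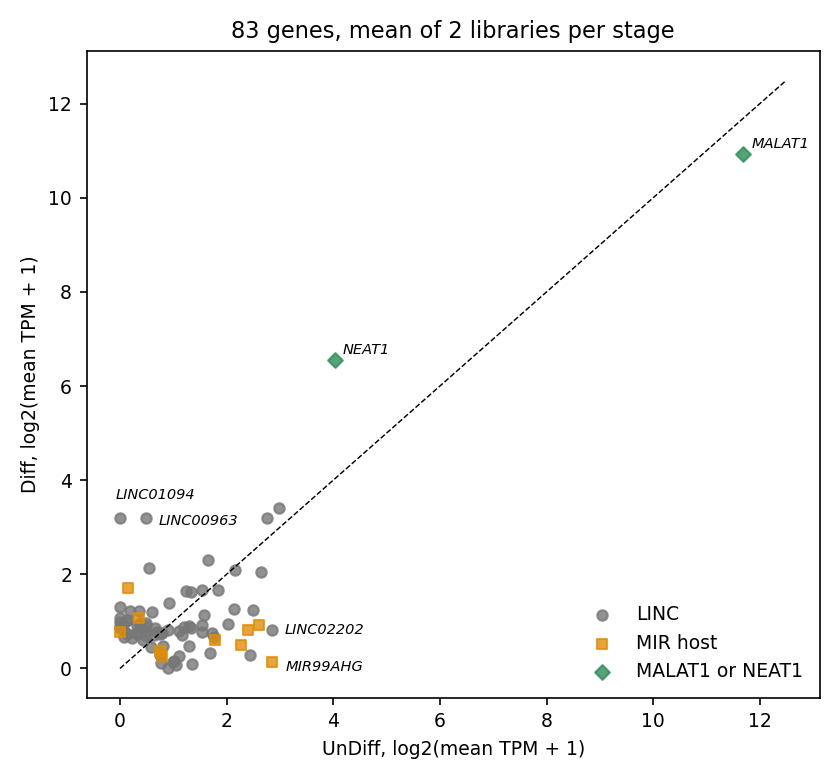
Each point is 1 of the 83 genes, with log2(mean TPM + 1) of the 2 undifferentiated libraries on the x axis and of the 2 differentiated libraries on the y axis, and the dashed line marks equal levels. MALAT1 and NEAT1 stand apart at high levels, LINC01094 and LINC00963 lie near 0 on the x axis, and MIR99AHG and LINC02202 lie far below the line.

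The libraries differed as wholes, which bears on every comparison. RN7SK, an abundant small nuclear RNA, took 20.9% to 23.5% of the TPM in differentiated and 35.5% to 41.7% in undifferentiated libraries. Protein-coding genes took 12.2% and 13.5% in differentiated libraries 1 and 2, against 23.0% and 15.6% in undifferentiated libraries 1 and 2. Undifferentiated library 1 stood above undifferentiated library 2 for most of the genes below. B lineage markers (10 of 10 called lower) summed to 12.9 and 15.9 TPM in differentiated against 584 and 349 TPM in undifferentiated libraries. Macrophage markers (10 of 10 called higher) summed to 3246 and 3258 TPM against 8.22 and 6.33. T and NK cell markers summed to at most 1.63 TPM in any library, neutrophil and mast cell markers to at most 0.74, and fibroblast and epithelial markers to at most 0.58. Among erythroid and megakaryocyte markers PPBP, a platelet chemokine, was at 22.55 and 23.69 TPM in differentiated and 0.09 and 0 TPM in undifferentiated libraries, HBA1 was at 0 in all 4, ITGA2B reached 1.11 TPM in undifferentiated library 2 only, and PF4, HBA2, HBB and ALAS2 stayed at or below 0.45 TPM. The part of other cell types in the differences below was not tested.

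The 83 genes fall into 3 sets by the stage in which a library reached the 0.5 TPM floor. It was reached in both stages by 44 genes, only in differentiated libraries by 25 and only in undifferentiated libraries by 14. The last 2 sets had to differ between stages by the way they were found, so their levels are given with no test. Of the 44 genes, 29 also passed the filter of the test (1 TPM in at least 2 libraries), and 15 did not. Among the 29, 3 were called higher in differentiated cells (NEAT1, LINC00963 and LINC00869) and 8 were called lower, while 18 were not called. Among all 9083 tested genes that reached 0.5 TPM in both stages, 13.3% were called higher and 21.0% lower, and 34.3% were called in all. The median log2 difference, differentiated minus undifferentiated, was −0.45 over the 29 genes and −0.17 over the 9083. The 8 lower calls became 0 by limma without either differentiated library (3 without library 1 and 1 without library 2 at an unadjusted p below 0.05) and 13 without undifferentiated library 2.

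A gene can pass the filter of 1 TPM through the libraries of 1 stage alone. In 10 of the 29 genes, 7 of them called, no library of the other stage reached 1 TPM. Among the 19 with at least 1 library at 1 TPM in each stage, 1 was called higher (NEAT1), 3 lower (MIR17HG, LINC00662 and LINC01128) and 15 were not called. Of the 8166 genes of the whole table with that property, 10.6% were called higher and 18.9% lower, 29.5% in all. The median log2 difference was −0.17 over the 19 genes and −0.16 over the 8166. MIR17HG (0.76 and 1.04 TPM) and LINC01128 (0.74 and 1.10 TPM) reached 1 TPM in 1 differentiated library only. They too passed the filter through the undifferentiated libraries in which they are high, so their p-values support nothing further. With the 9 tested genes that reached the floor in 1 stage only, 8 were higher and 12 lower, beside 18.6% and 22.8% of all 10180 tested genes (41.4% called in all), and nothing is read from that count. Scaling each library by its protein-coding sum turned the 3 higher and 8 lower calls among the 29 into 7 and 8, and the whole table's share of higher among all calls from 44.8% into 64.3%. Rescaling without RNAs of 1000 TPM or more gave 6 and 8 among 43 tested genes, and 61.2% for the whole table.

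NEAT1, the paraspeckle scaffold (ENSG00000245532), had 114.08 and 70.57 TPM in differentiated and 18.68 and 11.89 TPM in undifferentiated libraries. Both differentiated libraries were above both undifferentiated ones, with means of 92.3 ± 30.8 TPM (SD, n = 2) and 15.3 ± 4.80 TPM (SD, n = 2). NEAT1 rose by 2.51 ± 0.40 (SE) on the log2(TPM + 1) scale, adjusted p = 0.000241. The values are per gene, so the short and the long NEAT1 isoform, of which only the long one builds paraspeckles, were not separated. The call was lost without differentiated library 1 (2.17, adjusted p = 0.0846) and with no TPM filter (2.51, adjusted p = 0.0560), while every scaling kept it, at 2.51 to 3.05.

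MALAT1 (ENSG00000251562), the speckle RNA, had 2179.38 and 1734.33 TPM in differentiated and 4179.14 and 2426.31 TPM in undifferentiated libraries. Its lowest undifferentiated value lay above its highest differentiated value, and by mean TPM it ranked 40 in the whole table. The log2 difference of −0.71 ± 0.33 (SE) was not called (adjusted p = 0.10). It depended on 1 library and on scaling: without undifferentiated library 2 it was −1.10 (adjusted p = 0.0353) and without library 1 it was −0.32 (adjusted p = 0.441). Quantile normalization gave −1.33 (adjusted p = 0.00446) and the protein-coding sum −0.15 (adjusted p = 0.695).

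The ratio of the 2 RNAs within a library does not depend on any single factor by which that library is scaled. Quantile normalization is not such a factor, and it moved the log2 difference of MALAT1 from −0.71 to −1.33 and that of NEAT1 from 2.51 to 2.88. Each TPM of NEAT1 came with 19.1 and 24.6 TPM of MALAT1 after differentiation, against 224 and 204 TPM before it. The ratio was thus lower after differentiation in both libraries, and its geometric mean differed 9.86-fold between stages and the libraries of 1 stage lay far closer to each other than to those of the other. With 2 libraries a stage this ratio has no test of its own.

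**Figure D2:**
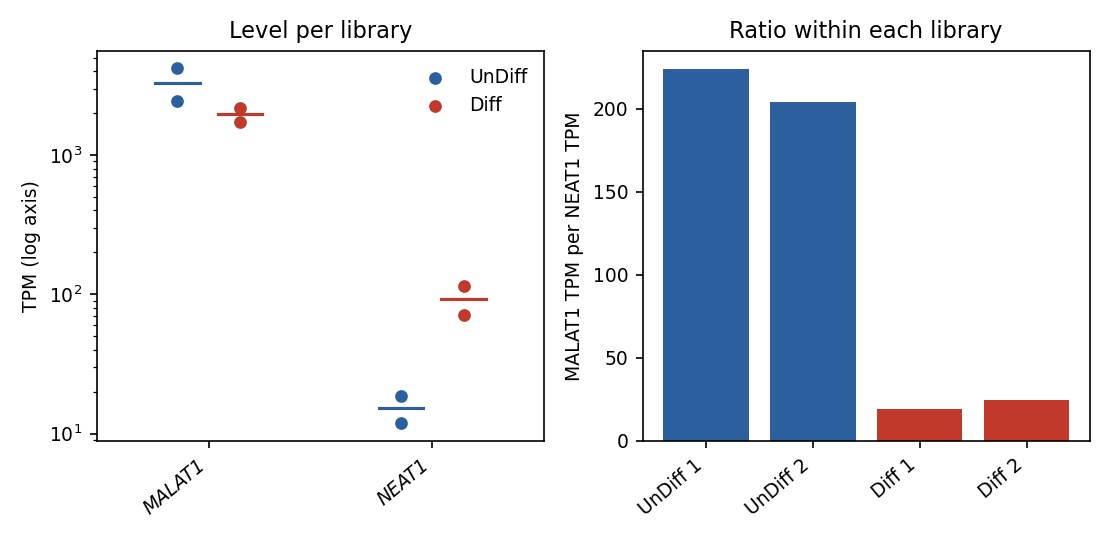
The left panel shows TPM of MALAT1 and NEAT1 on a log axis, with a point per library and a line at the mean of each stage, and the right panel shows TPM of MALAT1 per TPM of NEAT1 in each library. NEAT1 is higher and the ratio lower in both differentiated libraries (19.1 and 24.6 against 224 and 204).

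Genes of proteins known to work with these nuclear RNAs were taken from 3 lists. The values are of their RNA, as no protein was measured. Of 38 genes of paraspeckle proteins 34 were tested. Of these 22 fell, 12 were not called and 0 were higher, either by limma's adjusted p or at an unadjusted p below 0.05. Of all tested genes 22.8% were called lower and 18.6% higher. Their median log2 difference was −1.38, beside −0.14 for all 10180 tested genes. HNRNPH3, a splicing regulator, had 18.69 and 13.78 TPM in differentiated against 180.08 and 158.04 in undifferentiated libraries, and fell by 3.31 (log2, adjusted p = 1.57e-05). HNRNPA1, a splicing factor that also binds microRNA precursors, had 116.81 and 105.67 against 1089.04 and 840.88 TPM and fell by 3.10 (log2, adjusted p = 1.33e-05). NONO, a core paraspeckle protein named here after its values were seen, had 34.05 and 39.64 against 234.88 and 197.57 TPM (log2 difference −2.52, adjusted p = 8.43e-05). For its partners SFPQ and PSPC1, chosen in the same way, the log2 differences were −1.04 (adjusted p = 0.0379) and −0.43 (adjusted p = 0.425). So the scaffold RNA rose in libraries in which the RNAs of the listed paraspeckle proteins fell or were not called. The median of the list was −0.87 with the protein-coding sum, where 1 was called higher and 20 lower. With no TPM filter 9 of 38 were called lower, beside 573 of 29186 genes of the whole table. Most of the 22 lower calls were lost when either differentiated library was left out (medians −1.37 and −1.34). The NEAT1 call was lost without differentiated library 1.

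Of 18 genes of nuclear speckle proteins, all tested, 6 fell and 12 were not called. Of them 0 were higher (also 0 at an unadjusted p below 0.05), and the median log2 difference was −0.80. The whole-table shares of 22.8% lower and 18.6% higher stand beside this count, and nothing particular to the list is read from it. With the protein-coding sum 2 of them were called higher and 6 lower, with a median of −0.26. U2AF1, which recognises the 3′ splice site, had 12.43 and 10.64 against 111.55 and 94.04 TPM and fell by 3.05 (log2, adjusted p = 2.86e-05). SRSF3, a serine-arginine splicing factor, had 10.87 and 13.13 against 84.57 and 35.01 TPM and fell by 2.10 (log2, adjusted p = 0.00181). Of 9 tested genes for 3′ end formation of MALAT1 and NEAT1, 5 fell, 4 were not called and 0 were higher (also 0 at an unadjusted p below 0.05), with a median of −1.24, beside the same 22.8% and 18.6%. CPSF6, a cleavage factor subunit, had 13.35 and 13.04 against 65.31 and 55.50 TPM and fell by 2.11 (log2, adjusted p = 0.000432). RPP21, a subunit of RNase P, had 1.01 and 1.83 against 10.51 and 6.91 TPM and fell by 2.00 (log2, adjusted p = 0.00143). With the protein-coding sum the median of the 9 genes was −0.83, with 5 called lower and 0 higher. Their calls, CPSF6 and RPP21 included, needed both differentiated libraries. These lists share genes, HNRNPA1 and CPSF6 among them, and none was given a test as a list. Over the microRNA-processing, paraspeckle and speckle lists together 33 genes were called lower, against 6 and 7 without differentiated library 1 or 2 and 51 without undifferentiated library 2.

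The microRNA host transcripts summed to 7.05 and 7.48 TPM in differentiated and 31.45 and 15.76 TPM in undifferentiated libraries. 4 of them reached 0.5 TPM in both stages and were tested. Of these only MIR17HG reached 1 TPM in a differentiated library, and there in library 2 alone. The 4 hosts thus entered the test through the undifferentiated libraries, in which they are high. Their p-values describe these levels and support nothing further. All 4 were called lower, beside 21.0% of all tested genes that reached 0.5 TPM in both stages, and nothing is read from that count. MIR181A1HG, host of miR-181a and miR-181b, had 0.67 and 0.17 TPM in differentiated against 4.56 and 3.10 TPM in undifferentiated libraries, and fell by 1.77 ± 0.33 (SE, log2), adjusted p = 0.000764. MIR17HG, host of the miR-17-92 cluster known from B cell lymphoma, had 0.76 and 1.04 against 7.50 and 2.73 TPM, and fell by 1.57 ± 0.42 (SE, log2), adjusted p = 0.00900. Its 2 undifferentiated libraries lay far apart, and both were above the differentiated ones.

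MIR222HG had 0.73 and 0.77 TPM in differentiated against 6.00 and 2.51 TPM in undifferentiated libraries, and fell by 1.5 ± 0.38 (SE, log2), adjusted p = 0.00671. MIR4458HG had 0.54 and 0.51 against 3.13 and 1.74 TPM, and fell by 1.14 ± 0.29 (SE, log2), adjusted p = 0.00683. Differentiated libraries were below 1 TPM in all of these values but 1, a range where log2(TPM + 1) understates a change. All 4 calls were lost with no TPM filter (adjusted p = 0.0736 to 0.162). They were also lost when either differentiated library was left out (log2 differences −2.03 to −1.13). The direction could not change in these settings, as both undifferentiated libraries lay above both differentiated ones.

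Of the other 6 hosts, 3 reached the floor only in undifferentiated and 3 only in differentiated libraries, and their levels are given as description. MIR99AHG, the host of let-7c and miR-125b, was at 0 and 0.19 TPM in differentiated and at 8.13 and 4.21 TPM in undifferentiated libraries, the highest mean of any host before differentiation. MIR155HG, known as BIC and host of miR-155, was at 0.35 and 0.04 against 0.89 and 0.57 TPM. MIR181A2HG was at 0.21 and 0.38 against 0.70 and 0.66 TPM. Both miR-181 hosts therefore had their lower values after differentiation.

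MIR22HG, whose miR-22 is known from myeloid cells, was at 2.11 and 2.44 TPM in differentiated against 0.21 and 0 TPM in undifferentiated libraries. MIR3142HG, which spans the gene of miR-146a, a feedback inhibitor of Toll-like receptor signalling, was at 1.11 and 1.09 against 0.33 and 0.24 TPM. MIR503HG was at 0.57 and 0.85 TPM against 0 in both undifferentiated libraries. These 3 were the only hosts of the 10 with higher levels in both differentiated libraries. Each reached the floor in differentiated libraries only, so its order was set by how it was chosen.

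**Figure D3:**
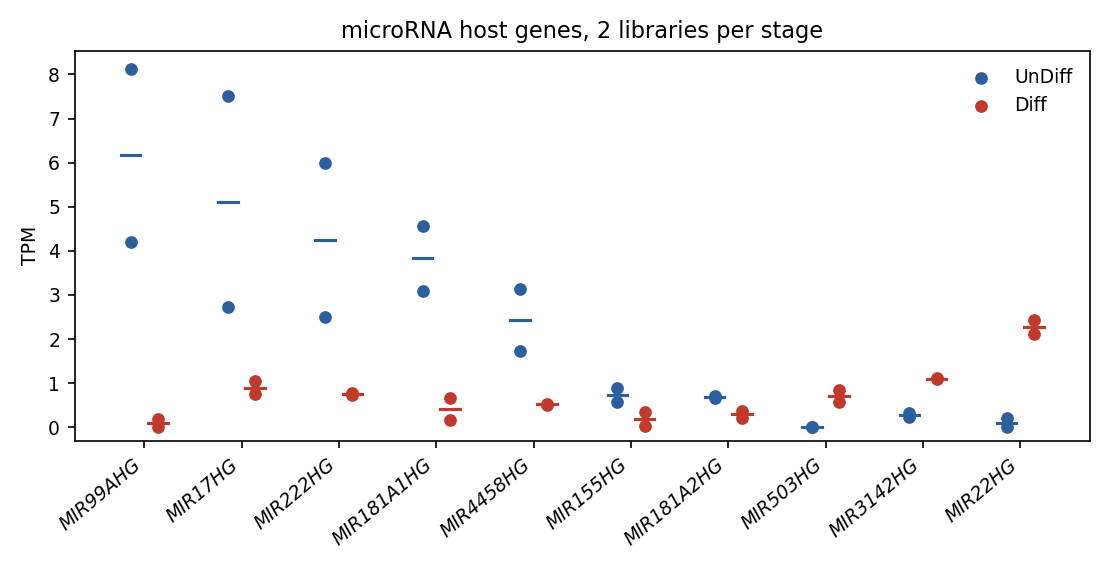
TPM of the 10 microRNA host genes is plotted on a linear axis, with a point per library and a line at the mean of each stage. The 7 hosts on the left have both undifferentiated libraries above both differentiated ones, and the 3 on the right, MIR503HG, MIR3142HG and MIR22HG, have the reverse order. Among all protein-coding rows 24.0% have the first order and 25.1% the reverse. Hosts that reached the floor in a single stage had to show their order, and nothing is read from the split.

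The microRNA genes themselves gave no usable values in these libraries. Of the 21 microRNA genes inside the hosts 20 were listed at 0 in all 4 libraries, and MIR181B1 was listed at 55.66 TPM in differentiated library 2 and at 0 in the others. Over all rows deposited, 1873 of 1879 microRNA gene rows were at 0 in all libraries. Mature microRNAs were not measured here.

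Of the 21 tested genes that process microRNAs or carry out their silencing, 2 rose, 6 fell and 13 were not called, with a median log2 difference of −0.40 that became 0.03 with the protein-coding sum (5 higher and 5 lower). The lower count is near the 22.8% of all tested genes called lower, and 18.6% of these were called higher. ZCCHC6, also called TUT7, which adds uridines to precursor and messenger RNA ends, had 24.45 and 24.97 TPM in differentiated against 3.12 and 2.19 in undifferentiated libraries, and rose by 2.83 (log2, adjusted p = 7.04e-05). AGO4, an Argonaute protein, had 3.29 and 4.21 against 1.86 and 0.92 TPM (log2 difference 1.01, adjusted p = 0.0435). Without either differentiated library both lost their call by limma. Besides HNRNPA1, RAN, the GTPase that drives export of precursor hairpins, fell by 3.03 (log2, adjusted p = 3.10e-05), from 186.11 and 142.01 TPM in undifferentiated to 21.39 and 17.02 TPM in differentiated libraries. Its partner XPO5, the export receptor, had 3.01 and 2.52 against 13.79 and 9.97 TPM (adjusted p = 0.00259).

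The core enzymes, named after their values were seen, were not called. DROSHA had 5.98 and 3.49 TPM in differentiated against 11.44 and 9.67 TPM in undifferentiated libraries, with a log2 difference of −1.04 just outside the threshold (adjusted p = 0.0508). DICER1 had 7.18 and 6.18 against 9.36 and 3.77 TPM and overlapped between stages (adjusted p = 0.843). DGCR8 (adjusted p = 0.592) and AGO2 (adjusted p = 0.754) were not called either.

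Among the LINC genes that reached 0.5 TPM in both stages, LINC00963 had the largest tested rise. It had 8.04 and 8.16 TPM in differentiated and 0.60 and 0.21 TPM in undifferentiated libraries, with no overlap, and rose by 2.71 ± 0.37 (SE, log2), adjusted p = 7.65e-05. LINC00869 had 2.38 and 4.41 against 0.76 and 0.14 TPM and rose by 1.59 ± 0.34 (SE, log2), adjusted p = 0.00214. It lost its call without differentiated library 2 (adjusted p = 0.0555) and with no filter (adjusted p = 0.115), and 4 other genes hold near-identical copies of its sequence, so its reads may be split among them. Both genes reached 1 TPM in differentiated libraries only and thus entered the test through the stage in which they are high, so their p-values describe these levels and support nothing further.

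In the same set LINC02202 had the largest tested fall, from 5.53 and 6.99 TPM in undifferentiated to 0.89 and 0.63 TPM in differentiated libraries, by 2.04 ± 0.37 (SE, log2), adjusted p = 0.000611. LINC00662 fell by 1.22 ± 0.40 (SE, log2), adjusted p = 0.0257, from 6.21 and 3.12 to 1.59 and 1.12 TPM. LINC01128 fell by 1.06 ± 0.34 (SE, log2), adjusted p = 0.0236, from 3.91 and 2.25 to 0.74 and 1.10 TPM. In each of these genes both undifferentiated libraries were above both differentiated ones, with library 1 the higher for LINC00662 and LINC01128 and library 2 for LINC02202. LINC00960 fell by 1.02 ± 0.32 (SE, log2), adjusted p = 0.0212, from 3.40 and 1.37 to 0.52 and 0.66 TPM, and lost the call without the variance trend (adjusted p = 0.0560). LINC02202 and LINC00960 reached 1 TPM in undifferentiated libraries only, and LINC01128 in 1 differentiated library besides. LINC02202, LINC00960 and LINC01128 thus entered the test through the stage in which they are high. Their p-values describe these levels and support nothing further. All 4 falls were lost when either differentiated library was left out (adjusted p = 0.113 to 0.431), and the 3 other than LINC02202 with no filter (adjusted p = 0.159 to 0.235).

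The abundant LINC genes that were not called include some that are now classed otherwise. LINC00969, currently named MUC20-OT1, had 9.40 and 9.71 TPM in differentiated and 7.80 and 6.05 TPM in undifferentiated libraries (log2 difference 0.42, adjusted p = 0.400), and 3 other genes hold near-identical copies of it. LINC01578, now CHASERR, an RNA next to the chromatin remodeller gene CHD2, had 8.79 and 7.52 against 7.96 and 3.62 TPM (0.51, adjusted p = 0.364). LINC00116, now MTLN, encodes a mitochondrial micropeptide and had 2.37 and 3.90 against 5.47 and 4.99 TPM (−0.62, adjusted p = 0.232). Of the 3, LINC01578 overlapped between stages, LINC00969 was higher in both differentiated libraries, and LINC00116 was lower in both.

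LINC01089 had 4.14 and 2.42 TPM in differentiated against 4.0 and 2.97 TPM in undifferentiated libraries, and its difference of −0.09 (adjusted p = 0.881) changed sign under 3 of the 4 other scalings. LINC00847 had 3.81 and 4.02 against 2.19 and 2.06 TPM (0.65, adjusted p = 0.176), and each of the 4 other scalings called it higher (adjusted p = 0.00693 to 0.0479). LINC01184 had 1.23 and 1.54 against 4.25 and 2.54 TPM (−0.86, adjusted p = 0.0761) and was called lower with median-of-ratios factors (adjusted p = 0.0144) and after quantile normalization (adjusted p = 0.00787). LINC00969 was called higher with the protein-coding sum (adjusted p = 0.00984) and without RNAs of 1000 TPM or more (adjusted p = 0.0408), and LINC01578 with the protein-coding sum (adjusted p = 0.0171). The 18 genes not called had log2 differences from −0.86 to 0.65.

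**Figure D4:**
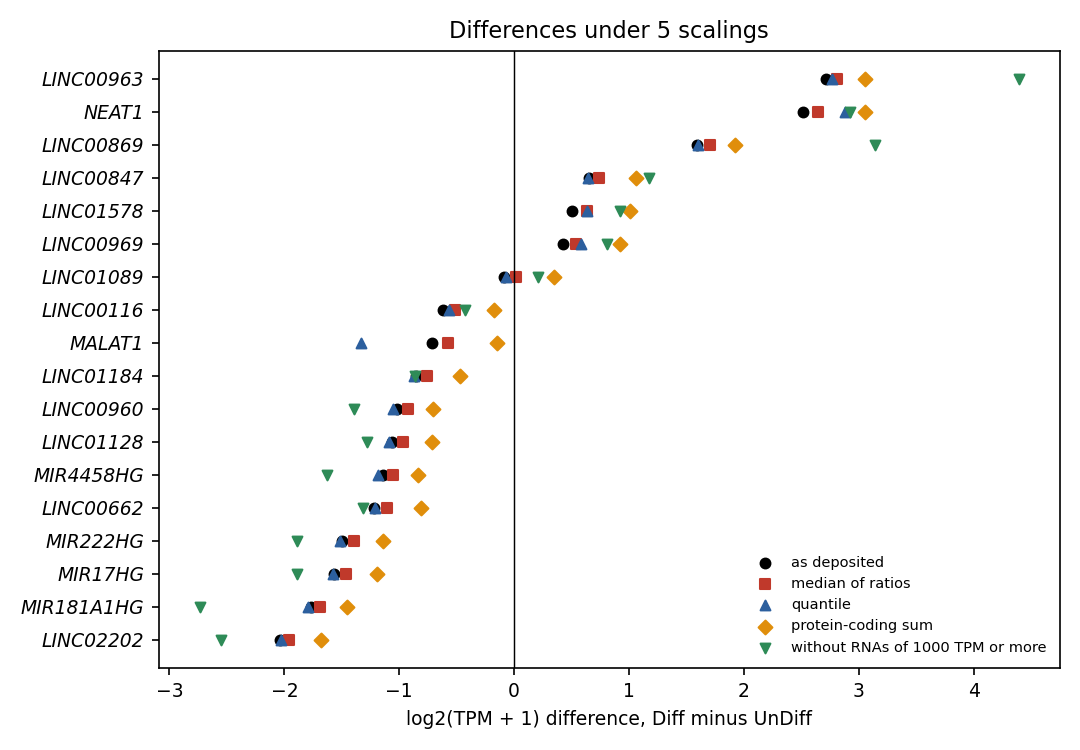
The log2(TPM + 1) difference, differentiated minus undifferentiated, is shown for the 18 named genes with a test under the deposited scale and 4 other scalings. LINC00963, NEAT1 and LINC00869 lie right of 0 and the 8 called falls left of 0 in every scaling, while LINC01089 crosses 0 and MALAT1 has no value without RNAs of 1000 TPM or more.

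Of the 25 genes that reached the floor only in differentiated libraries, 7 were listed at 0 in both undifferentiated libraries. The medians of the stage means were 0.890 TPM in differentiated and 0.105 TPM in undifferentiated libraries. LINC01094 was the most abundant, at 7.71 and 8.57 TPM against 0 and 0. LINC01678 was at 1.46 and 1.5 TPM against 0 and 0, and LINC00623, which has near-identical copies in 2 other genes, was at 1.09 and 1.55 against 0.18 and 0.10 TPM. LINC01146, now HISLA, an RNA known from macrophages and named after its values were seen, was at 1.06 and 0.70 TPM against 0 in both undifferentiated libraries.

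Of the 14 genes that reached the floor only in undifferentiated libraries, LINC01816 alone was at 0 in both differentiated libraries, with 0.60 and 1.13 TPM before differentiation. The medians of the stage means were 0.158 TPM in differentiated and 0.995 TPM in undifferentiated libraries. After MIR99AHG the most abundant was LINC00426, at 0.22 and 0.20 TPM in differentiated against 3.15 and 5.63 TPM in undifferentiated libraries. LINC02363 was at 0.26 and 0.25 against 3.12 and 1.33 TPM. LINC01715, now TAF12-DT, was at 0 and 0.14 against 1.76 and 1.33 TPM. All of these levels were low, and no read depth is known for them.

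**Figure D5:**
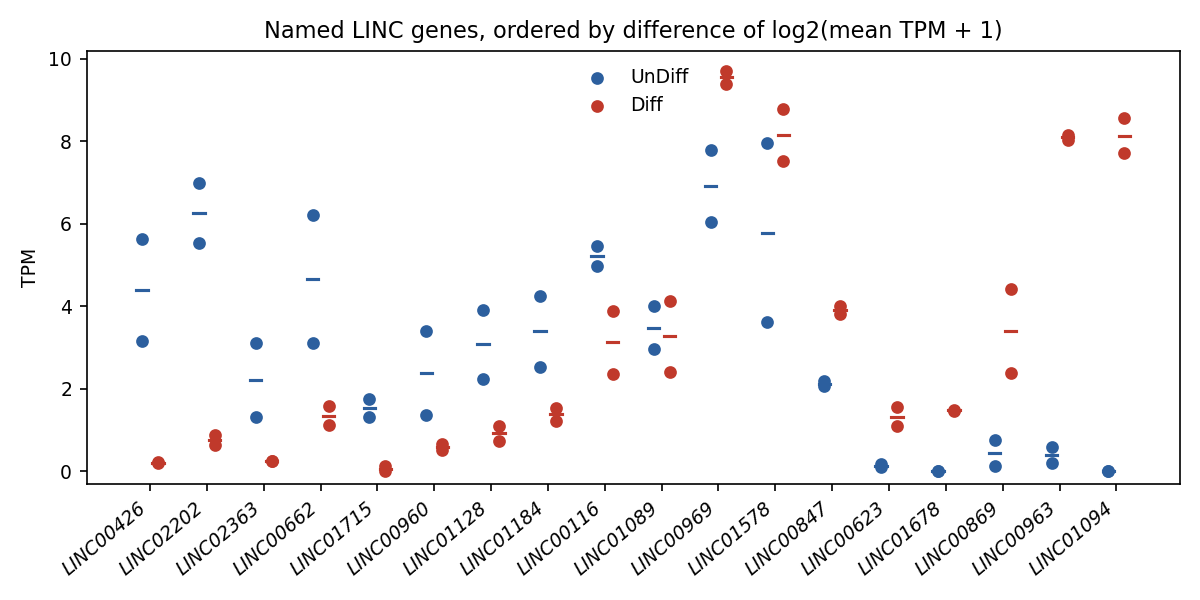
TPM of the named LINC genes is plotted on a linear axis, with a point per library and a line at the mean of each stage, ordered by the difference between stages. LINC00426, LINC02202 and LINC02363 on the left are near or below 1 TPM in both differentiated libraries, and LINC00963 and LINC01094 on the right are near 8 TPM there and below 1 TPM in undifferentiated libraries.

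The names do not describe 1 uniform class. In GENCODE 29, 59 of the 83 genes are typed as long intergenic RNAs, 11 as processed transcripts, 4 as antisense, 1 as a bidirectional promoter RNA, 3 as protein-coding and 5 as transcribed pseudogenes. 15 of them carry another symbol in the current name table. Exons of 26 genes overlapped those of another gene on the same strand and exons of 29 overlapped on the opposite strand, and 9 had near-identical copies in other genes, so that the estimated levels of these genes are uncertain.

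In 9 cases the nearest protein-coding gene started on the opposite strand within 2000 bases of the start of a LINC gene or host. Such a pair is called divergent here. Only the nearest gene of each was examined, so other such pairs may be missed. LINC01184, now SLC12A2-DT, was examined with CCDC192 only. LINC02202 starts 722 bases from EBF1, a transcription factor that B cell identity requires. EBF1 had 2.12 and 1.54 TPM in differentiated against 45.83 and 23.04 TPM in undifferentiated libraries, a log2 difference of −3.58 (adjusted p = 2.81e-05). Both genes of this pair fell. MIR22HG starts 651 bases from WDR81, which acts in endosomes. WDR81 had 5.28 and 9.75 against 1.45 and 0.78 TPM (log2 difference 1.98, adjusted p = 0.00182). Both had their higher levels after differentiation, but the order of MIR22HG was set by how it was chosen. LINC02202 entered the test through the undifferentiated libraries, in which it is high. The partners of the other 7 pairs (ERCC6L2, ZNF567, ACTR1B, TAF12, CXorf40A, CNOT2 and ZNF407) were not called, TAF12 among them with 6.34 and 8.16 against 11.19 and 6.64 TPM beside its partner LINC01715. All of these neighbours were named after their values were seen. Pairs were defined by strand and start distance alone. The 2 genes overlap in the pairs of ERCC6L2, WDR81, CXorf40A, CNOT2 and ZNF407.

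The nearest protein-coding gene was found for each of the 83 genes. In 28 of these 83 pairs both genes had the same order of stages with no overlap of libraries, in 9 the opposite order, and in 46 at least 1 gene overlapped. Of all 19817 protein-coding rows 25.1% had both differentiated libraries above and 24.0% had both undifferentiated libraries above. The order of many of the 83 genes was set by how they were chosen, and the pairs were given no test. Of 3 pairs picked with their values in view, MIR181A1HG lies 50017 bases from PTPRC, which encodes CD45, at 50.77 and 56.71 TPM in differentiated and 0.01 and 0.06 TPM in undifferentiated libraries, opposite to the host's fall. MIR3142HG lies 9850 bases from PTTG1, the securin of mitosis, at 1.77 and 2.05 against 32.65 and 24.13 TPM, also opposite to the host's levels. LINC01146 lies 9739 bases from GPR65, an acid-sensing receptor, at 4.69 and 3.90 against 0.29 and 0.09 TPM, in the same order as the LINC gene.

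Promoters of 3 genes are shown because LINC02202 and MIR22HG start next to a called gene and LINC01094 had the highest differentiated level among genes at 0 before. They run from 250 bases before to 50 bases after the RefSeq start on GRCh38.p14 and are written 5′ to 3′ along the gene. Capitals mark matches, on either strand, to 4 motif letters: TTGCNNAA, a C/EBP-like motif, GAGGAAG, a PU.1-like motif, CCCNNGGG, an EBF-like motif, and CACGTG, an E-box. LINC02202 is at chr5:159100233-159100532 on the plus strand, MIR22HG at chr17:1716161-1716460 on the minus strand and LINC01094 at chr4:78645744-78646043 on the plus strand.
LINC02202: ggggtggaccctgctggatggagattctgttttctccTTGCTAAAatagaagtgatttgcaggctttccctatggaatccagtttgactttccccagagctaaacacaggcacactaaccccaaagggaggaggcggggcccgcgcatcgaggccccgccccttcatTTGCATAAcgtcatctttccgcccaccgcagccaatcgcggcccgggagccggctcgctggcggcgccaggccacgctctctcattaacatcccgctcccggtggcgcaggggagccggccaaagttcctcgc
MIR22HG: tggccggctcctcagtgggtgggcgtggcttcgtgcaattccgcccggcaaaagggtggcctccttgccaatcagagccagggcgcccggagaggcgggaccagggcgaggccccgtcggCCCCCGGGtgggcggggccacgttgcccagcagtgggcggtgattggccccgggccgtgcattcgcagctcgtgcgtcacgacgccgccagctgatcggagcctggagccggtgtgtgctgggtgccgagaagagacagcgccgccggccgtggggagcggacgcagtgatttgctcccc
LINC01094: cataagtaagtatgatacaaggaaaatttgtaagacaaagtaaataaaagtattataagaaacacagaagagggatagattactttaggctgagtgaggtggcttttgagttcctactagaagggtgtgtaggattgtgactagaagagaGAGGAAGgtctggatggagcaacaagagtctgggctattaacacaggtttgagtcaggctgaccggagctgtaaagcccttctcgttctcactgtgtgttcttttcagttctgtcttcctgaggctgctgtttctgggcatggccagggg
The LINC02202 window held 2 C/EBP-like matches, the MIR22HG window 1 EBF-like match and the LINC01094 window 1 PU.1-like match. RefSeq windows were matched for 62 of the 83 genes. A C/EBP-like match was present in 3 of the 62 (4.84%) and in 10.5% of all 35116 windows, a PU.1-like match in 12 (19.4%) and 13.6%, an EBF-like match in 11 (17.7%) and 19.1%, and an E-box in 5 (8.06%) and 7.26%. A match is a description of the letters, not a binding site, and binding was not measured.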

How the data were processed

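Total RNA of 4 BLaER1 libraries was sequenced, 2 per stage. The authors deposited TPM, an abundance divided by gene length and scaled to 1 sum per library. Trimmomatic, STAR and RSEM are named, per the submitters' processing notes. Versions, genome build and annotation: not given in the sources used here. TPM keeps no read depth, so depth is unknown and no counting interval or detection limit could be computed.

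Testing was limited to the 10180 of 58302 rows that held 1 TPM or more in 2 or more libraries. Stages were compared on log2(TPM + 1) by limma 3.58.1 (R 4.3.3), two-sided, with variances moderated along a trend with the mean. The fit had 2 residual and 10.9 prior degrees of freedom. Called genes had an adjusted p below 0.05 by the Benjamini-Hochberg method across the 10180, and every adjusted p is from limma. The smallest p that an exact permutation test allows with 2 against 2 libraries is 0.333. The procedure was also run on simulated data with few changed genes, all of large effect. That run does not vouch for calls of smaller differences or for libraries that differ as wholes. The members, the lists of genes and the tests were chosen with earlier results of these data known.

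Named are MALAT1 and NEAT1, every microRNA host, the 10 LINC genes with the highest mean TPM, up to 8 called LINC genes per direction whose libraries did not overlap, the 3 genes on either side of the TPM floor, and up to 2 called genes per direction of each protein list. Genes outside this rule were picked with their values in view. Gene types, overlaps and neighbours came from GENCODE 29, which holds 58039 of the 58302 IDs and need not be the authors' annotation. Sequence copies were searched at 500 or more aligned bases and 98% identity. Sequences came from RefSeq on GRCh38.p14. Alternatives covered the pseudocount, the TPM filter, 4 other scalings, the variance trend, a replicate block and leaving out each library.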

Additional observations from a re-analysis of the deposited data

How the results depend on the processing

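Of 167 values of 18 named genes under other settings, 144 kept their direction and side of the threshold, 10 lost a call, 10 gained one and 3 changed sign. With one library left out (1 residual degree of freedom, the lone library being assumed to vary like the other stage) these counts were 49, 18, 3 and 2 of 72. The sign changes were of LINC01089: 0.0172 under median-of-ratios scaling, 0.21 without RNAs of 1000 TPM or more, 0.35 with the protein-coding sum, 0.21 without differentiated library 2 and 0.08 without undifferentiated library 1. With one library left out it ranged from −0.38 (without differentiated library 1) to 0.21. The causes were not tested. The 1890 higher and 2326 lower calls of the whole table became 687 and 573 with no filter and 1016 and 1420 with a floor of 5 TPM, as other numbers of genes were tested. Higher calls were 3936 without RNAs of 1000 TPM or more and 3553 with the protein-coding sum. Leaving out one library gave 934 to 2714 higher and 337 to 3818 lower calls. Among genes that reached 0.5 TPM in both stages, the 3 higher calls became 1 with no filter, 5 under median-of-ratios scaling, 6 without RNAs of 1000 TPM or more and 7 with the protein-coding sum. Their 8 lower calls became 1 with no filter, 1 at 5 TPM and 13 under quantile normalization. One library left out gave 2 to 4 higher and 0 to 13 lower calls: 0 by limma without either differentiated library, where 3 and 1 had an unadjusted p below 0.05, and 13 without undifferentiated library 2. Over all tested genes with a listed name, 8 higher and 12 lower calls became 22 and 19 at 0.5 TPM, 2 and 2 with no filter and 3 and 1 at 5 TPM, with 29 higher without RNAs of 1000 TPM or more, and 7 to 9 and 1 to 17 with one library left out. In the microRNA-processing, paraspeckle and speckle lists, 2 higher calls became 1 with a pseudocount of 0.1, no filter or 5 TPM, 4 under median-of-ratios scaling or quantile normalization, 5 without RNAs of 1000 TPM or more and 8 with the protein-coding sum, and 0 to 4 with one library left out. Their 33 lower calls became 13 with no filter and 6 to 51 with one library left out. Of the genes with a listed name 38 were tested, 83 at 0.5 TPM or with no filter and 7 at 5 TPM. Without RNAs of 1000 TPM or more 82 were tested. The whole table had 2144 higher and 2494 lower calls of 12011 at 0.5 TPM, and 3936 and 2500 of 15807 without these RNAs. Of the 83, 25 reached 0.5 TPM only in differentiated and 14 only in undifferentiated libraries. Their direction was set by how they were found, so nothing is read from the calls over genes with a listed name. A floor of 1 TPM left 38 genes of the 83, and a floor of 0.25 TPM gave 133. Replicate numbers do not pair the libraries as far as the labels say, and the deviations of same-numbered libraries correlated at −0.02. With a replicate block the calls were 3 higher and 8 lower among genes that reached both stages, 1730 and 2036 in the whole table, and 1 higher and 30 lower in the protein lists. Across the scalings the median of all tested genes moved from −0.14 to between −0.08 (quantile normalization) and 0.29 (protein-coding sum), and to −0.43 without undifferentiated library 2.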
